A study of Mus musculus with 16 samples.

Results

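Atf4, Atf5, Ddit3, Trib3, Asns, Chac1, Sesn2, Ppp1r15a, Psat1 and Phgdh, genes of the integrated stress response, were followed here through messages and ribosome footprints of hair follicle cells. They were chosen by name, and for each the transcript that gathered most footprints in the 8 Ribo-seq libraries was taken, which makes 10 of 22612 genes in the count tables. The cells came from 3D-3C organoids of C57BL/6J mice, a culture in which hair follicle stem cells (HFSCs) and their progeny keep a balance. After 2 weeks of culture they were sorted into α6+CD34− progenitors and α6+CD34+ HFSCs, and the organoids were either left untreated or given N1-acetylspermidine (N1-AcSpd), an acetylated polyamine, for the last 72 h. This gives 4 groups, which are untreated progenitors, untreated HFSCs, N1-AcSpd progenitors and N1-AcSpd HFSCs. Replicates 1 and 2 are the cultures of 2 donor mice, and each lysate gave an RNA-seq and a Ribo-seq library, so that n = 2 in each group and assay. The groups differ in the sorted surface marker and in the polyamine, and no gene was targeted in any of them.

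The integrated stress response is the pathway by which cells answer amino acid shortage, misfolded protein in the endoplasmic reticulum, haem shortage or viral RNA. Kinases phosphorylate the initiation factor eIF2, which lowers translation of most messages while that of ATF4, a bZIP transcription factor, rises, because upstream reading frames in the Atf4 leader then no longer keep ribosomes from its coding sequence. ATF4 in turn switches on genes for amino acid synthesis and uptake, redox balance and feedback control, and it binds them at a composite C/EBP and ATF element known as CARE. The amount of Atf4 footprint relative to Atf4 message is therefore a usual readout of the pathway, beside the messages of its targets.

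The leaders of these transcripts carry the sequence on which that control rests, and they are shown first for the regulatory genes of the group. In the GENCODE M21 models (GRCm38), Atf4 (ENSMUST00000109605, chr15:80255184-80257541, plus strand, 3 exons) had a leader of 594 bases with 3 upstream ATGs. The upstream ATGs of Atf4 and Atf5 are given as windows of 20 bases with the upstream ATG in capitals, in the order in which a scanning ribosome meets them, because in both genes a short reading frame precedes one that runs across the start codon.
Atf4, 475 bases before the start codon: cttttctctcATGgggcctt
Atf4, 196 bases before the start codon: tgcggccaccATGgcgtatt
Atf4, 97 bases before the start codon: ggcctaagccATGgcgctct
Atf5, 252 bases before the start codon: cgcccgcgcaATGgctctgt
Atf5, 121 bases before the start codon: tttcgccgccATGgagtcct
The first Atf4 ATG opened a frame of 36 codons and the second one of 3 codons. The third opened 59 codons in another frame than ATF4, ending inside the coding sequence. Atf5 (ENSMUST00000047356, chr7:44812256-44816658, minus strand, 3 exons), the closest relative of Atf4, was built alike, with a frame of 3 codons followed by one of 58 codons across the start.

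Ddit3 and Ppp1r15a, a further pair of regulators, had upstream frames that all ended before the start codon. Ddit3 (ENSMUST00000026475, chr10:127290774-127296288, plus strand, 4 exons), which encodes the transcription factor CHOP, had 2 in the same frame with 34 and 31 codons and a shared stop. Ppp1r15a (ENSMUST00000042105, chr7:45522917-45526268, minus strand, 3 exons), which encodes GADD34, the inducible subunit of the phosphatase that reverses eIF2 phosphorylation, had 3 with 45, 34 and 26 codons.
Ddit3, 131 bases before the start codon: cgattatatcATGttgaaga
Ddit3, 122 bases before the start codon: catgttgaagATGagcgggt
Ppp1r15a, 249 bases before the start codon: cgcgtggacgATGttggcgc
Ppp1r15a, 205 bases before the start codon: ggaagattacATGcgatatc
Ppp1r15a, 104 bases before the start codon: tgagggcgacATGaacccgc
Of the enzymes, Psat1 (ENSMUST00000025542, chr19:15904678-15925059, minus strand, 9 exons) had 1 upstream ATG 110 bases before its start, with a frame of 66 codons across it, and Asns (ENSMUST00000031766, chr6:7675169-7693254, minus strand, 12 exons) had 2, with 14 and 13 codons. Sesn2 (ENSMUST00000030724, chr4:132492032-132510501, minus strand, 10 exons) had 1, with 22 codons. Trib3 (ENSMUST00000040312, chr2:152337422-152344032, minus strand, 4 exons), Chac1 (ENSMUST00000028780, chr2:119351229-119354381, plus strand, 3 exons) and Phgdh (ENSMUST00000065793, chr3:98313170-98339990, minus strand, 12 exons) had none. Thus in the GENCODE models 7 of 10 members had an upstream ATG, against 44.8% of 8391 genes measured in both assays, and 3 of 10 had a frame across the start codon, against 13.9%.

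**Figure D1:**
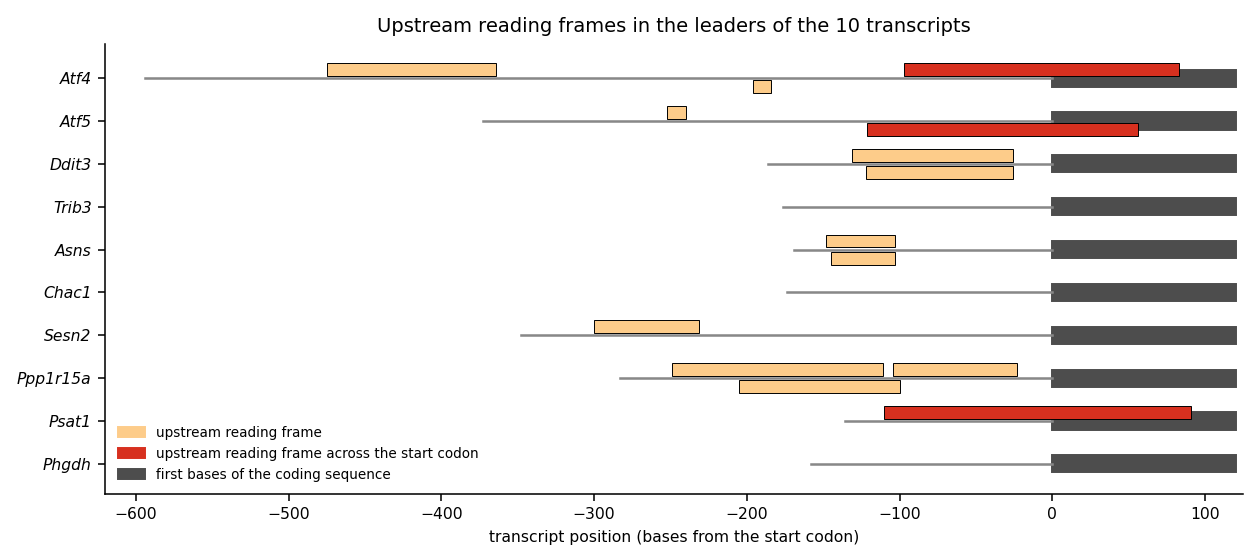
Upstream reading frames in the leaders of the 10 transcripts, drawn to scale in bases from the start codon; grey lines are leaders, pale boxes are upstream frames that end before the start, red boxes are frames that cross it, and dark boxes are the first bases of the coding sequence. Frames across the start codon are seen in Atf4, Atf5 and Psat1, and no upstream frame in Trib3, Chac1 and Phgdh.

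Promoter sequence was searched for the element through which ATF4 acts. In the RefSeq promoters (GRCm38.p6, 250 bases before to 50 after the start site; all 10 members matched), the CARE letters TGATGNAA were found on either strand in 3 of 10 members, against 4.51% of 27025 genes and 3.97% of 32851 promoters. Windows of 30 bases are given on the strand of the gene, with the match in capitals.
Asns: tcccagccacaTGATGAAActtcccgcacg
Chac1: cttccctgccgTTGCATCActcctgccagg
Trib3: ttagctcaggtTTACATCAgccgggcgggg
The Asns window is chr6:7693214-7693243, on the minus strand, and its match starts 23 bases before the RefSeq start site. The match in Chac1 (window chr2:119351038-119351067, plus strand) starts 193 bases before the start and reads on the opposite strand, and that in Trib3 (window chr2:152344028-152344057, minus strand) starts 14 bases after it, also on the opposite strand. In the GENCODE model the Asns letters fall within the leader, where they overlap its 2 upstream ATGs. By the RefSeq start site these ATGs lie before the transcript, so that the place of Asns among the 7 members with an upstream ATG depends on the GENCODE model. The endoplasmic reticulum stress element, searched in the same windows on both strands, was found in 0 of 10 members and in 0.119% of all promoters.

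Reads over the leaders cannot be followed in these tables. Among 3118 pairs of transcripts that share a coding sequence but differ in the rest of their exons by at least 100 bases, 99.7% had identical RNA-seq counts and 92.9% identical Ribo-seq counts in all 8 libraries, whereas of 18271 pairs whose coding sequences differ by at least 100 bases 0.640% had identical RNA-seq counts. The values given here are therefore for the coding sequences, without the leaders. In Atf4, Atf5 and Psat1 they include the part of an upstream frame that runs past the start codon, and reads there cannot be told apart by frame. On the transcripts kept, the RNA-seq libraries held 21612795 to 31524062 counts and the Ribo-seq libraries 34475 to 268052, so that messages are measured far more closely than footprints. Markers followed the sort, with hair follicle stem cell markers summing to 628 to 1247 CPM (counts per 1000000 counts of the library, after TMM scaling) in HFSC and 259 to 424 CPM in progenitor libraries, and late differentiation markers to 175 to 310 CPM in HFSC and 358 to 854 CPM in progenitor libraries. The stem cell list holds Cd34, by which the cells were sorted. Its Sox9 overlapped between the cell types, at 159 CPM in the second N1-AcSpd HFSC library and up to 179 CPM in progenitors. With N1-AcSpd the late differentiation markers went from 358 and 380 CPM to 854 and 640 CPM in progenitors, and the summed stem cell markers from 382 and 424 CPM to 259 and 284 CPM in progenitors and from 1077 and 1247 CPM to 771 and 628 CPM in HFSCs. In HFSCs this fall was mainly that of Krt15, from 682 and 763 CPM to 346 and 309 CPM. Nfatc1 went from 88.4 and 91.2 CPM to 79.6 and 83.4 CPM there, and Cd34, Sox9 and Lhx2 overlapped between treated and untreated HFSCs. Basal keratinocyte markers were at 36488 to 39961 CPM in HFSC and 39233 to 43497 CPM in progenitor libraries. Of the markers of other cells, 5 of 6 for fibroblasts, 4 of 4 for endothelium, 4 of 5 for immune cells and 5 of 5 for melanocytes had a mean under 1 CPM, and the dissociation and heat shock genes ranged from 1494 to 1767 CPM in HFSC and from 1325 to 1861 CPM in progenitor libraries. The 2 RNA-seq libraries of N1-AcSpd HFSCs stood apart from their mouse numbers: the difference between replicates 2 and 1 correlated at 0.35 to 0.59 across genes among the other 3 groups, but at -0.57 to -0.40 with this group. The comparisons between groups do not use the mouse number, whereas a ratio of footprints to message within a lysate does.

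Messages of all 10 genes were plentiful, and their order can be read per coding length. The highest was Atf4 at 644 CPM per kilobase, above 98.4% of 14224 genes tested. Psat1 and Phgdh, 2 enzymes of serine synthesis, stood at 429 and 264 CPM per kilobase. Atf5 was at 415 and Asns, which makes asparagine, at 252 CPM per kilobase. Lower came the pseudokinase Trib3, a feedback inhibitor of ATF4, at 140 CPM per kilobase, and Ddit3 at 68.6. Chac1, which degrades glutathione, was at 59.7 CPM per kilobase, Sesn2, an amino acid sensor that restrains mTORC1, at 40.7 and Ppp1r15a at 32.8, the last still above 70.8% of genes. Over the 8 libraries the ranges of neighbours in this order overlapped for Psat1 and Atf5, Phgdh and Asns, Ddit3 and Chac1, and Sesn2 and Ppp1r15a, and did not overlap for the other 5 neighbouring pairs. Between its lowest and highest library a message moved little, from 1.26-fold in Asns to 1.79-fold in Ddit3.

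The first comparison asks whether the messages differ between HFSCs and progenitors. All 10 were estimated lower in HFSCs, with a median log2 difference of -0.14, beside -0.01 over all genes, of which 51.1% were lower. None of the 10 passed an adjusted p of 0.05 in edgeR's quasi-likelihood test, which 3.91% of all genes passed. Unadjusted, 2 of 10 had a p under 0.05, both lower, against 18.1% of all genes in either direction and 8.88% as lower. Over both treatments the estimates ran from -0.30 in Chac1 to -0.03 in Ddit3, and the 95% intervals of all 10 lay within a 2-fold change, as did those of 73.3% of all genes. Between the untreated groups 10 of 10 were again estimated lower, with a median of -0.17, in the fit whose spread is shared by all 8 libraries. None of them passed the adjusted threshold there (0.148% of all genes did), and 1 of 10 had an unadjusted p under 0.05 (9.58%). Between the treated groups 10 of 10 were estimated lower with a median of -0.13, 0 of 10 passed the adjusted threshold (0.745%) and 1 of 10 the unadjusted one (11.2%). In both cases the one was Chac1, with -0.27 (SE 0.12, adjusted p = 0.506 by edgeR) and -0.32 (SE 0.12, adjusted p = 0.340). With only the 4 libraries compared in the fit, which leaves out the N1-AcSpd HFSC libraries from the untreated comparison, 0 of 10 passed the adjusted threshold in either case. These members were chosen with results of these data known and are not independent of each other, so the count is given without a test. In bulk samples fewer cells of a type and less RNA per cell cannot be told apart. The late differentiation markers were lower in HFSC libraries as well, at the levels given above, and their part in these differences was not tested.

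Chac1 came closest to a difference. Its message stood at 42.1 and 44.2 CPM in untreated progenitors and at 37.5 and 33.9 CPM in untreated HFSCs, in replicates 1 and 2. With N1-AcSpd it was at 43.3 and 46.7 CPM in progenitors and at 33.3 and 38.8 CPM in HFSCs. All 4 HFSC libraries lay below all 4 progenitor libraries, as they did for 4.42% of all genes tested and for no other member; for 0 of 10 members did they all lie above, against 5.10% of genes. The log2 difference was -0.30 (SE 0.08, unadjusted p = 0.00649, adjusted p = 0.0943 by edgeR). Sesn2 followed with -0.27 (SE 0.09, unadjusted p = 0.0169, adjusted p = 0.157), from 62.6 and 69.1 CPM in untreated progenitors, 51.6 and 57.7 CPM in untreated HFSCs, 56.8 and 67.3 CPM in N1-AcSpd progenitors and 55.0 and 48.6 CPM in N1-AcSpd HFSCs. Here the groups overlapped, by the first N1-AcSpd progenitor library. With the mouse as a replicate block the adjusted p was 0.117 for Chac1 and 0.174 for Sesn2. With the numbers of the N1-AcSpd HFSC libraries exchanged, an alternative chosen after seeing the data, both passed the block fit (adjusted p = 0.0246 for Chac1 and 0.0173 for Sesn2, by edgeR), as did 1950 genes in all.

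The transcription factors themselves differed less. The Atf4 message was at 697 and 670 CPM in untreated progenitors, 665 and 570 CPM in untreated HFSCs, 671 and 778 CPM in N1-AcSpd progenitors and 650 and 690 CPM in N1-AcSpd HFSCs. Its groups overlapped and its log2 difference of -0.13 (SE 0.08, adjusted p = 0.469 by edgeR) was within the spread of replicates. Atf5 had a difference of -0.18 (SE 0.09) and Ddit3 of -0.03 (SE 0.15). Among the enzymes Asns differed by -0.14 (SE 0.08), Psat1 by -0.12 (SE 0.11) and Phgdh by -0.13 (SE 0.10), and of the feedback genes Ppp1r15a differed by -0.22 (SE 0.16) and Trib3 by -0.06 (SE 0.13). The lowest adjusted p among these 8 genes was 0.366, that of Atf5.

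**Figure D2:**
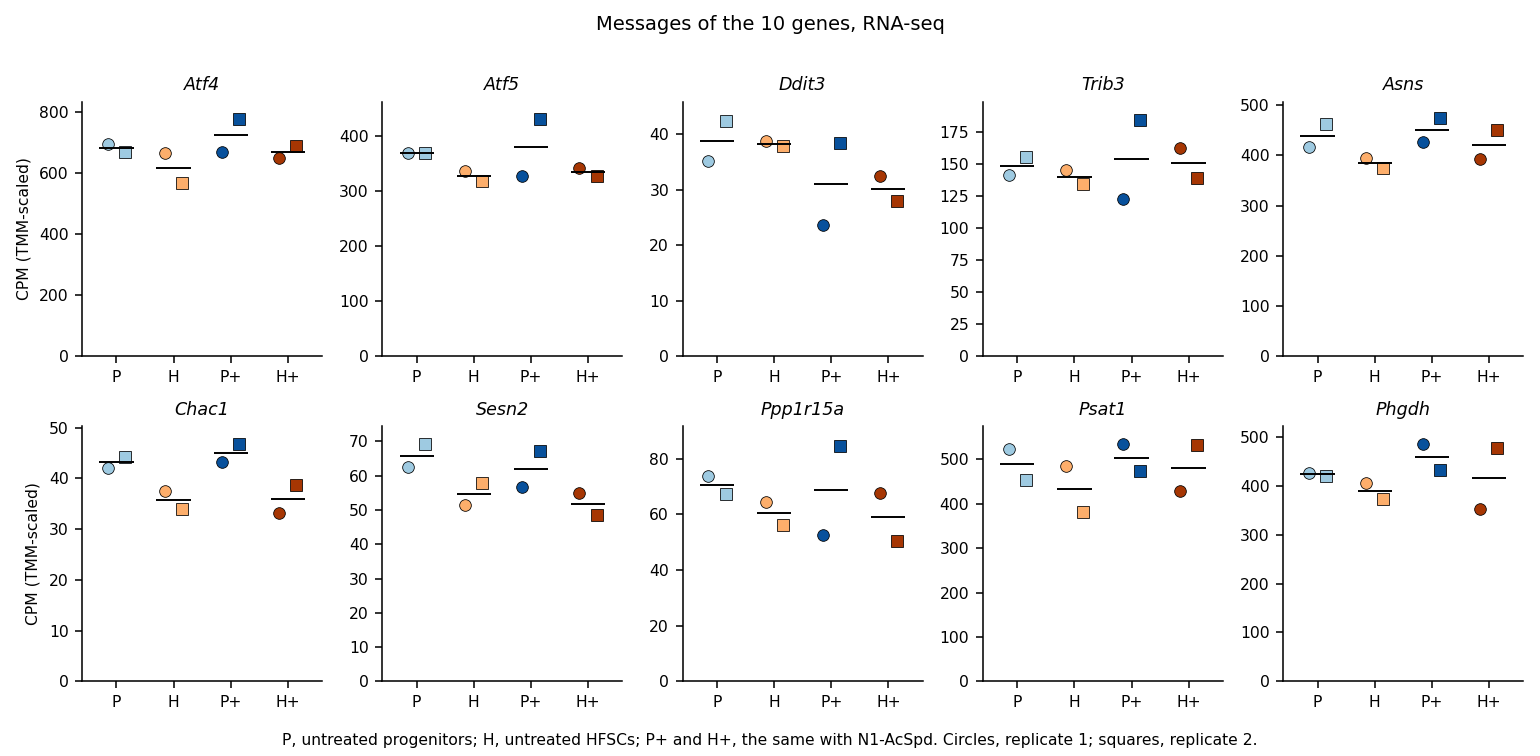
RNA-seq level of each gene in CPM (vertical axes from 0) in the 4 groups; circles are replicate 1, squares are replicate 2 and bars are means of 2. Chac1 is the one gene in which all 4 HFSC libraries lie below all 4 progenitor libraries, at 33.3 to 38.8 against 42.1 to 46.7 CPM.

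The second comparison asks whether N1-AcSpd changed these messages. Averaged over both cell types 7 of 10 were estimated higher and 3 lower, with a median log2 difference of 0.06 beside -0.01 over all genes. None passed the adjusted threshold, which 1.64% of all genes passed, and none had an unadjusted p under 0.05, against 15.6% of all genes. In 0 of 10 members did the 4 treated libraries all lie above or all lie below the 4 untreated ones, against 3.95% and 3.89% of all genes. All 10 intervals again lay within a 2-fold change. The part of the shift in the summed stem cell and late differentiation markers with N1-AcSpd, given above, was not tested here or in the footprint comparisons. The largest difference was that of Ddit3, at 35.1 and 42.3 CPM in untreated and 23.6 and 38.5 CPM in N1-AcSpd progenitors, and at 38.8 and 37.8 CPM in untreated and 32.4 and 27.9 CPM in N1-AcSpd HFSCs. It was lower in both treated HFSC libraries than in both untreated ones, while the progenitor groups overlapped. The share of all genes with such an order in HFSCs alone was not counted. The log2 difference of Ddit3, -0.33 (SE 0.15, unadjusted p = 0.0523, adjusted p = 0.325 by edgeR), did not pass. Atf4 had a difference of 0.10 (SE 0.08), Phgdh of 0.11 (SE 0.10), Psat1 of 0.10 (SE 0.11) and Asns of 0.08 (SE 0.08). Trib3 (0.08, SE 0.13), Atf5 and Chac1 (both 0.04, SE 0.09 and 0.08) were as close to 0, and Ppp1r15a (-0.04, SE 0.16) and Sesn2 (-0.08, SE 0.09) lay just below it. The effect of N1-AcSpd was also compared between cell types. The differences of effects ran from -0.05 in Chac1 to 0.11 in Psat1, with 0 of 10 members past the adjusted threshold (0.00% of all genes) and 0 of 10 past the unadjusted one (0.830%).

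**Figure D3:**
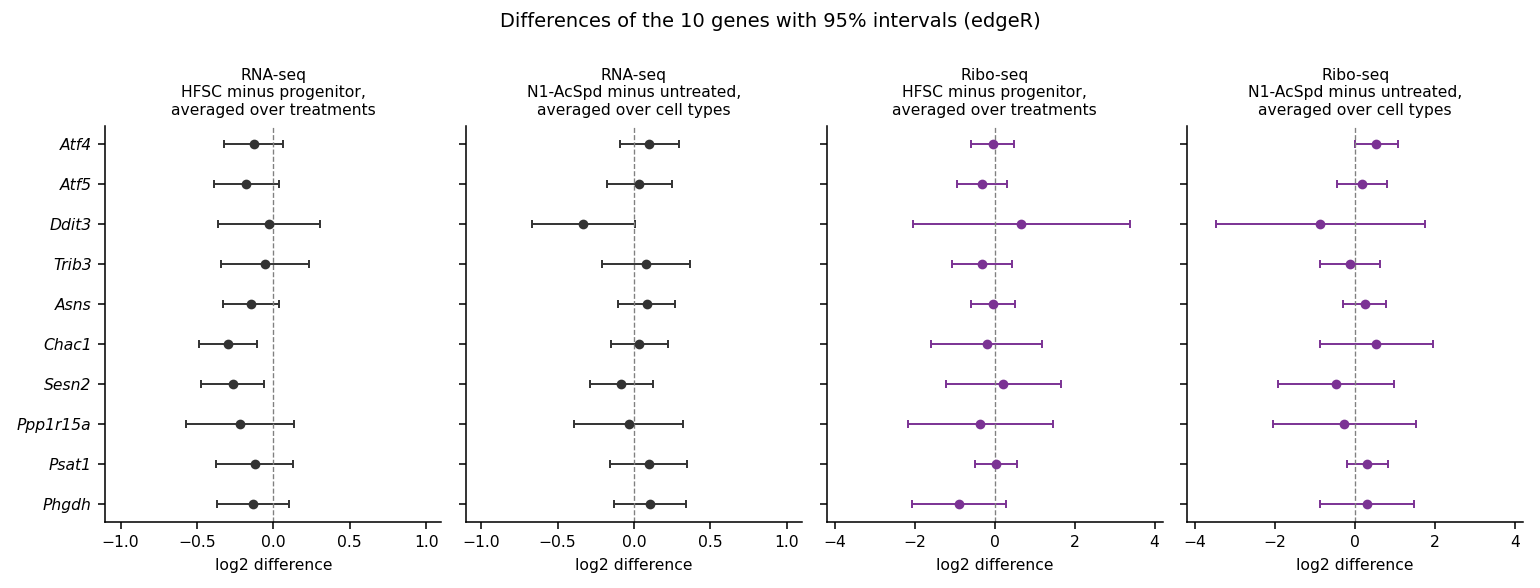
Log2 differences of the 10 genes with 95% intervals from edgeR, for HFSC minus progenitor and N1-AcSpd minus untreated, in RNA-seq (black) and Ribo-seq (purple, on a wider axis). In RNA-seq all 10 points lie left of 0 for the cell types; in Ribo-seq all 20 intervals include 0, and those of Ddit3, Ppp1r15a, Sesn2 and Chac1 are the widest.

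The neighbours of these genes in the pathway were listed by hand, with earlier results known, and are given by counts. In HFSCs against progenitors, 13 of 13 genes of tRNA charging had lower messages, with a median log2 difference of -0.20, and 0 adjusted calls. An unadjusted p under 0.05 with a lower value was reached by 8 of 13 of these genes, 9 of 16 of the other arms of the unfolded protein response, 5 of 15 of serine, glycine, one-carbon and proline synthesis, 3 of 12 amino acid transporters, 2 of 15 of the eIF2 list and 0 of the other two lists, beside 8.88% of all genes. Of the other arms of the unfolded protein response 15 of 16 were lower, with a median of -0.28, and 2 fell past the adjusted threshold, the endoplasmic reticulum factors Sdf2l1 (-0.49, SE 0.08, adjusted p = 0.0163) and Manf (-0.42, SE 0.08, adjusted p = 0.0277). Of amino acid transporters 9 of 12 were lower and 1 fell, the glutamine transporter Slc38a1 (-1.50, SE 0.30, adjusted p = 0.0321). Each of these calls is lost without either untreated progenitor library, the second untreated HFSC library or the first N1-AcSpd progenitor library. Those of Slc38a1 and Manf are also lost without the first N1-AcSpd HFSC or the second N1-AcSpd progenitor library, and that of Slc38a1 without the second N1-AcSpd HFSC library. Over the 8 libraries left out in turn the difference was -1.73 to -1.33 for Slc38a1 (adjusted p up to 0.115), -0.46 to -0.36 for Manf (up to 0.115) and -0.55 to -0.42 for Sdf2l1 (up to 0.0719). Of serine, glycine, one-carbon and proline synthesis 12 of 15 were lower (median -0.14), of the eIF2 kinases and their machinery 13 of 15 (-0.08), of secreted and other ATF4 targets 8 of 10 (-0.20) and of the bZIP partners 4 of 6 tested (-0.05), with 0 adjusted calls in these 4 lists. With N1-AcSpd, 12 of 13 tRNA charging genes, 13 of 16 of the unfolded protein response, 12 of 15 of the amino acid synthesis list, 10 of 15 of the eIF2 list and 9 of 12 transporters were higher, with medians of 0.06 to 0.15, and 4 of 6 bZIP partners with a median of 0.04. Of the secreted and other ATF4 targets 4 of 10 were higher and 6 lower, with a median of -0.05. There were 0 adjusted calls in these 7 lists, and unadjusted ones, beside 15.6% of all genes, in 5 transporters, 4 genes of amino acid synthesis, 3 of the eIF2 list, 2 each of tRNA charging and the unfolded protein response and 1 bZIP partner, all higher, and in 3 secreted and other targets, all lower. The first of these comparisons and the second use the same libraries, and both are of messages. In footprints of HFSCs against progenitors, 7 of 13 tRNA charging genes were lower and 6 higher (median -0.02). Of the unfolded protein response 11 of 16 were lower (-0.21). Lower were also 8 of 15 of amino acid synthesis, 12 of 15 of the eIF2 list and 7 of 9 transporters tested. The same held for 6 of 8 secreted targets and 2 of 5 bZIP partners tested. These footprint lists had 0 adjusted calls. In footprints with N1-AcSpd, 9 of 9 transporters tested, 9 of 15 of the eIF2 list and 10 of 16 of the unfolded protein response were higher. Higher were also 8 of 15 of amino acid synthesis, 6 of 13 of tRNA charging and 2 of 5 bZIP partners. Of the secreted targets 1 of 8 was higher and 7 were lower (median -0.58). Adjusted calls were 0 in each of these lists too.

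Other genes whose messages ran most like the members were found over the 8 RNA-seq libraries. Among 12246 genes (mean count 10 or more) the pattern closest to the mean of the 10 members was that of Aldh1l2 (Pearson r = 0.96), a mitochondrial enzyme of folate metabolism, which also stands in the amino acid synthesis list, and next came Maoa, Pxk, Cd274 and Dnm2 (r = 0.94 to 0.96). Closest to Atf4 alone were Ergic2, Ier3ip1 and Hprt (r = 0.96 to 0.98). The libraries share donors, groups and scaling, and these values are descriptions over 8 points.

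Footprints were much scarcer. Over the 8 Ribo-seq libraries together Psat1 had 1050 footprints, Atf4 840, Asns 674, Atf5 344 and Trib3 179. Phgdh had 66, Sesn2 51, Chac1 44, Ppp1r15a 25 and Ddit3 11. The first 5 had more than 3 footprints in every library, and 7 of 10 had at least 1 in every library. Ddit3 had 0 in the first replicate of both progenitor groups, Ppp1r15a 0 in the first replicate of both treated groups, and Sesn2 0 in the first N1-AcSpd progenitor library. RPM stands for footprints per 1000000 footprints of the library, without further scaling. Where a library has 0 footprints, 3 could still be missed, which is 87.0, 36.5 and 19.7 RPM in the first untreated progenitor, N1-AcSpd progenitor and N1-AcSpd HFSC libraries, where these zeros lie, and such limits, like the binomial intervals given, cover counting error only. All 10 passed the filter of a mean of at least 1 count, as did 37.3% of all genes.

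No difference between HFSCs and progenitors in the footprints of a member was detectable at this depth. In edgeR's test 0 of 10 passed the adjusted threshold, which 0.154% of all genes passed, and 0 of 10 had an unadjusted p under 0.05, against 4.14%. Their 4 HFSC libraries lay all above or all below the 4 progenitor libraries in 0 of 10 members, against 1.56% and 1.15% of genes. The median of the 10 estimates, 3 of them positive, was -0.12 beside 0.00 over all genes (log2). The 4 members with most footprints had intervals within a 2-fold change: Atf4 differed by -0.04 (95% interval -0.58 to 0.49), Asns by -0.05 (-0.59 to 0.50), Psat1 by 0.04 (-0.48 to 0.55) and Atf5 by -0.31 (-0.93 to 0.32). Trib3 differed by -0.31 (SE 0.39). The other 5 had standard errors of 0.60 to 1.39, so that even a change of 2-fold would not have been detectable.

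The lowest of these estimates was that of Phgdh, the enzyme that opens serine synthesis. It had 3 and 27 footprints in untreated progenitors, 2 and 6 in untreated HFSCs, 8 and 6 in N1-AcSpd progenitors and 12 and 2 in N1-AcSpd HFSCs. In the same order this is 87.0 and 101, 38.2 and 45.0, 97.3 and 93.9, and 79.0 and 33.3 RPM. On this scale all 4 HFSC libraries were below the 4 progenitor libraries, but after scaling by TMM the first N1-AcSpd HFSC library (84.1 CPM) lay above the first untreated progenitor library (76.1 CPM), and the counting interval of the latter alone ran from 17.9 to 254 RPM. The log2 difference was -0.89 (SE 0.60, unadjusted p = 0.137, adjusted p = 1.00 by edgeR).

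**Figure D4:**
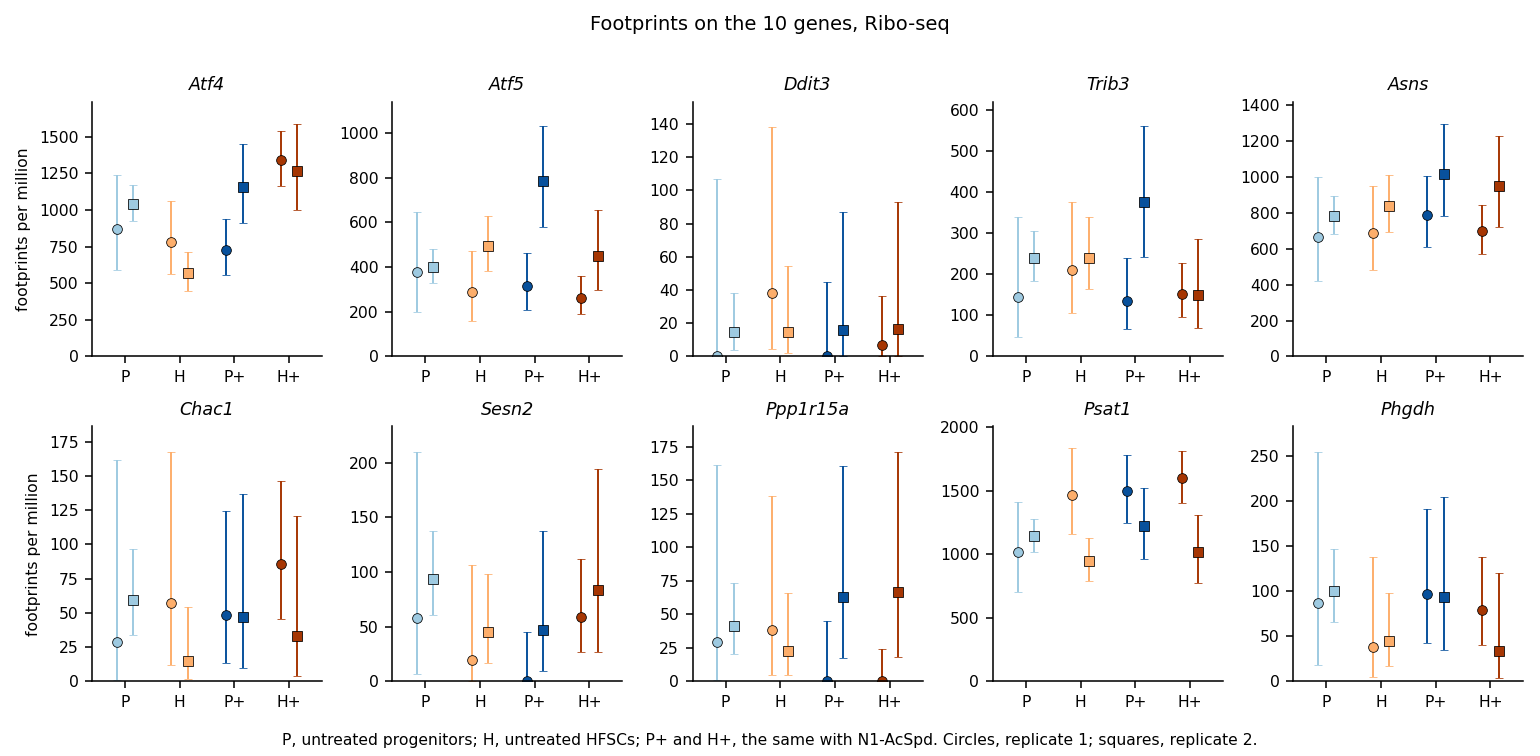
Footprints on each gene in RPM (vertical axes from 0) in the 4 groups; circles are replicate 1, squares are replicate 2, and bars are 95% exact binomial (Clopper-Pearson) intervals. Atf4 in N1-AcSpd HFSCs lies at 1342 and 1267 RPM, above 783 and 570 RPM in untreated HFSCs, while for Ddit3, Ppp1r15a, Sesn2 and Chac1 the intervals span most of the panel.

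With N1-AcSpd the footprints of Atf4 in HFSCs had the lowest unadjusted p among the members. In untreated HFSCs it had 41 and 76 footprints, or 783 RPM (Clopper-Pearson interval 562 to 1062) and 570 RPM (449 to 713). In N1-AcSpd HFSCs it had 204 and 76, or 1342 RPM (1165 to 1540) and 1267 RPM (999 to 1586). Both treated HFSC libraries lay above both untreated ones, in which the message was at 665 and 570 CPM, against 650 and 690 CPM with N1-AcSpd. The share of all genes ordered in this way within HFSCs was not counted. In progenitors the groups overlapped, with 30 and 279 footprints untreated (870 and 1041 RPM) and 60 and 74 with N1-AcSpd (730 and 1158 RPM). The log2 difference was 1.03 in HFSCs (SE 0.39, unadjusted p = 0.00764, adjusted p = 1.00 by edgeR) and 0.02 in progenitors (SE 0.39), with a spread taken over all genes rather than from Atf4 alone. An unadjusted p under 0.05 with a higher value was reached by 1 of 10 members and by 1.82% of all genes in the HFSC comparison, beside 3.54% of genes in either direction, and an adjusted one by 0.00%. The effects in HFSCs and progenitors differed by 1.02 (SE 0.55, unadjusted p = 0.0622, adjusted p = 1.00), so that a difference between the cell types was not shown. The other member near the unadjusted threshold, Sesn2, had 2.83 (SE 1.46, unadjusted p = 0.0525) from 2 and 25 footprints in untreated progenitors, 1 and 6 in untreated HFSCs, 0 and 3 in N1-AcSpd progenitors and 9 and 5 in N1-AcSpd HFSCs, and 0 of 10 members passed the adjusted (0.00% of genes) or the unadjusted threshold (2.73%). Averaged over both, Atf4 footprints differed by 0.53 (SE 0.27, unadjusted p = 0.0542).

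In the targets of ATF4 no difference in footprints with N1-AcSpd was detectable. Averaged over both cell types, 0 of 10 members passed the adjusted threshold for N1-AcSpd, against 0.0829% of all genes, or had an unadjusted p under 0.05, against 4.85%, and 6 estimates were above and 4 below 0. In 0 of 10 members did the treated libraries all lie above or all below the untreated ones, against 1.49% and 1.54% of genes. Asns differed by 0.23 (95% interval -0.31 to 0.78), Psat1 by 0.31 (-0.21 to 0.82) and Atf5 by 0.16 (-0.47 to 0.78), which leaves room for up to 1.77-fold in Psat1. In HFSCs alone 6 of 10 estimates, that of Atf4 included, were above 0 and 4 below. There Psat1 differed by 0.23 (-0.50 to 0.96, up to 1.94-fold), Asns by 0.12 (-0.65 to 0.89) and Atf5 by -0.21 (-1.09 to 0.68). Trib3 differed by -0.54 (SE 0.55), Chac1 by 1.17 (SE 1.03) and Sesn2 by 0.94 (SE 0.97) in HFSCs. Psat1 had 35 and 307 footprints in untreated and 123 and 78 in N1-AcSpd progenitors, and 77 and 126 in untreated and 243 and 61 in N1-AcSpd HFSCs. In the same order these are 1015 and 1145, 1496 and 1221, 1470 and 945, and 1599 and 1017 RPM, so that the HFSC groups overlapped. Asns ranged from 667 to 1017 RPM over the 8 libraries. Atf5 stood at 377 and 399 RPM in untreated progenitors, 286 and 495 RPM in untreated HFSCs, 316 and 783 RPM in N1-AcSpd progenitors and 263 and 450 RPM in N1-AcSpd HFSCs. Its groups overlapped in both comparisons, and the second replicate was the higher one in each of the 4 groups. Averaged over both cell types, Trib3 differed by -0.13 (SE 0.38) and Phgdh by 0.29 (SE 0.60).

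The 10 genes together took 0.238% to 0.289% of the counts of an RNA-seq library and 0.323% to 0.482% of a Ribo-seq library, and in each of the 8 lysates the share among footprints was the larger one. This is the usual case among the genes measured in both assays. Their median ratio of mean Ribo-seq to mean RNA-seq CPM was 1.202, and 40.1% of them were under 1, while 6 of 10 members were above 1. The lowest share of message was in the second untreated HFSC library, and the highest share of footprints in the second N1-AcSpd progenitor library (95% interval 0.430% to 0.539%).

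Footprints relative to message gave a wide order among the members. The ratio of mean Ribo-seq to mean RNA-seq CPM, in which coding length drops out, was 2.64 for Psat1, above 88.2% of 8439 genes, and 1.93 for Asns. It was 1.47 for Atf4, 1.42 for Trib3, 1.22 for Atf5 and 1.199 for Chac1, beside a median of 1.202 over all genes. Sesn2 was at 0.885. Ppp1r15a was at 0.508, Ddit3 at 0.390 and Phgdh at 0.174, the last above 1.58% of genes. Neighbours in this order overlapped over the 8 lysates in each case. Psat1 and Asns were above the median gene in 8 of 8 lysates, and Phgdh and Ddit3 below it in 8 of 8, with Ddit3 resting on 11 footprints. The 7 members with an upstream ATG had a median ratio of 1.22 and the 3 without one, Phgdh among them, of 1.199. Over all genes 1923 with at least 2 upstream ATGs had a median of 0.852 and 4629 without any had 1.39. Genes with a single upstream ATG were counted among these members but left out of the gene medians. The 2 pairs of medians are therefore not comparable, and those of the members rest on few genes.

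How far a short read can be placed bears on this ratio and was computed from the coding sequences. Of all runs of 28 bases, about the length of a footprint, 13.4% of those in Phgdh occurred no more than once in the mouse genome, with a median of 6 occurrences. The share was 80.0% in Ppp1r15a, 92.5% in Psat1 and 100% in the other 7 members, Ddit3 among them. As few or fewer such runs as in Phgdh were found in 0.902% of 8427 genes, and these 76 genes, Phgdh included, had a median ratio of 0.195, against 1.29 for 5545 genes in which every run was unique. How reads with several matches were counted is not given in the sources used here, so that the Phgdh values of both assays are uncertain, and the part of this in its low ratio was not tested.

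**Figure D5:**
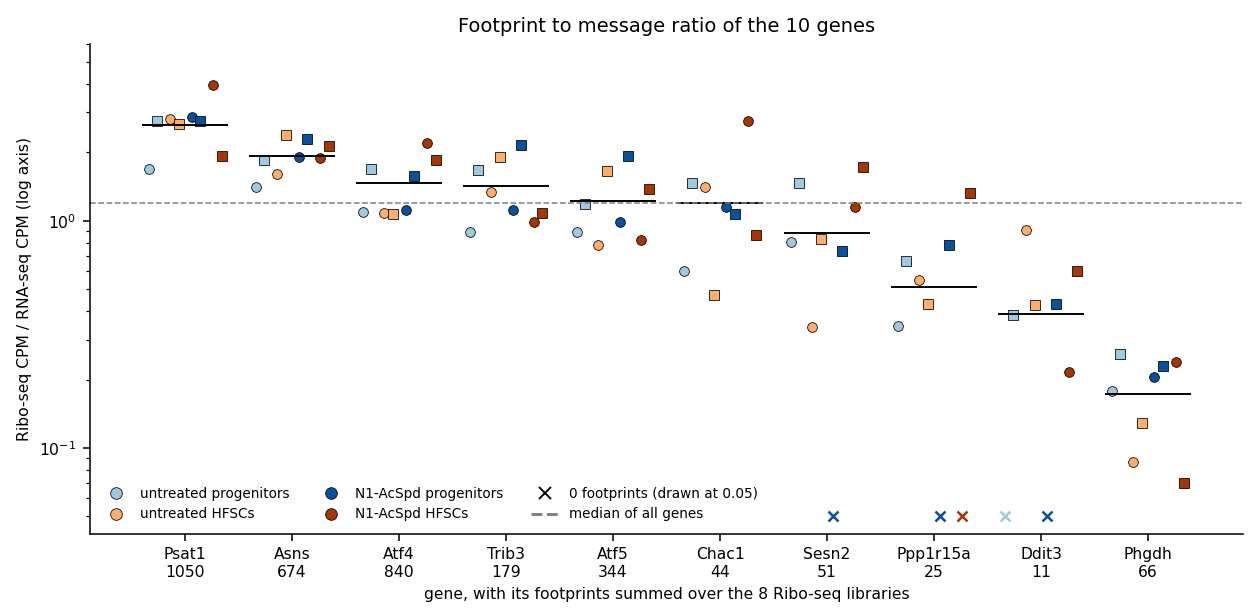
Ribo-seq CPM over RNA-seq CPM (log axis) of each gene in each lysate, coloured by group, with circles for replicate 1, squares for replicate 2 and black bars for the ratio of means; crosses mark libraries with 0 footprints, and the dashed line is the median of all genes. Psat1 and Asns lie above that line in every lysate, and Phgdh below it in every lysate, at 0.070 to 0.260.

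Translational efficiency was compared as the difference of the Ribo-seq and RNA-seq differences, in one fit of all 16 libraries. For HFSCs against progenitors 0 of 10 members and 0.00% of 8439 genes passed the adjusted threshold, with 6.01% of genes and 0 of 10 members under an unadjusted p of 0.05. Phgdh had the largest estimate among members (-0.78, SE 0.42, unadjusted p = 0.0780, adjusted p = 0.855). Atf4 differed by 0.04 (95% interval -0.46 to 0.53), Asns by 0.05 (-0.43 to 0.54) and Psat1 by 0.11 (-0.40 to 0.63), all within a 2-fold change. For N1-AcSpd the shares were 0 of 10 members and 0.00% of genes adjusted, and 0 of 10 and 7.35% unadjusted. Atf4 differed by 0.40 (SE 0.24, 95% interval -0.09 to 0.89, unadjusted p = 0.108, adjusted p = 0.720). Its ratio was 1.09 and 1.69 in untreated progenitors, 1.09 and 1.07 in untreated HFSCs, 1.12 and 1.58 in N1-AcSpd progenitors and 2.20 and 1.85 in N1-AcSpd HFSCs, the last group being the one whose RNA-seq libraries did not follow their mouse numbers. With either pairing of its libraries both ratios use the same 2 message levels of 650 and 690 CPM. Psat1 differed by 0.21 (SE 0.25), Asns by 0.09 (SE 0.23) and Phgdh by 0.18 (SE 0.43).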

How the data were processed

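RNA-seq (ribosomal RNA depleted) and Ribo-seq were run on shared lysates, 16 libraries in all. The authors trimmed reads with flexbar, filtered out ribosomal and transfer RNA with bowtie, used STAR and mm10 for alignment and deposited raw read counts for 64026 transcripts. The submitters' processing notes name Bowtie 1.2.3, STAR 2.7.3a, featureCounts and GRCm38.p5. The deposited tables also hold the authors' own differential tests (Riborex), which were not used. Reads were amplified by PCR without molecular identifiers.

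For each gene the transcript with the highest footprint total was used. Counts were compared by edgeR 4.0.16 (R 4.3.3) with TMM factors, a minimum mean of 1 count, a two-sided quasi-likelihood test over the 4 groups of an assay, and Benjamini-Hochberg adjustment over all genes tested. Translational efficiency was the interaction of assay and contrast in 1 fit of 16 libraries. The procedure was tested on simulated data for the averaged cell type comparison, with a spread set by hand and without shared donors. Only genes with many counts were changed there, so that members with few footprints are not covered by it. The members and all gene lists were chosen with earlier results of these data known. Named beside the members were list genes past the adjusted threshold (at most 5 a comparison) and the genes of most similar pattern. With 2 donor mice per group, p-values rest on a spread between cultures that edgeR estimated over all libraries of a fit and moderated across genes. The Ribo-seq intervals had the width of a normal distribution. The spread used in Ribo-seq was therefore the one over all genes, and not that of the gene between its own 2 cultures.

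Replicate numbers stand for donor mice and so pair the libraries; the correlation of differences between mice across genes, given above for RNA-seq, was 0.02 to 0.11 in Ribo-seq. Alternatives were DESeq2 1.42.0, RLE factors, no minimum, a minimum mean of 10 counts, a block for the mouse, a fit of the compared libraries alone, leaving out each library, sums over transcripts and an unadjusted threshold. Chosen after seeing the data was the block with the numbers of the 2 N1-AcSpd HFSC RNA-seq libraries exchanged.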

Additional observations from a re-analysis of the deposited data

How the results depend on the processing

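No member passed an adjusted p of 0.05 with DESeq2, RLE factors, another count minimum, sums over transcripts, the replicate block or any library left out; the cause of the changes given here was not tested. With the replicate block (the mouse as a term) no call of a member changed, but the genes called in RNA-seq for N1-AcSpd went from 233 to 135 and in Ribo-seq from 7 to 4. With the numbers of the treated HFSC libraries exchanged the block gave 1950 genes for the cell types, 2 of them members (Chac1, adjusted p = 0.0246, and Sesn2, adjusted p = 0.0173, by edgeR), and 1260 for N1-AcSpd. For the cell types in RNA-seq 556 genes were called, against 950 by DESeq2, 869 without a count minimum and 2573 unadjusted, the last with 2 members; between the untreated and between the treated groups 1 member each passed unadjusted in the same fit. For N1-AcSpd in RNA-seq DESeq2 gave 581, no minimum 413, sums over transcripts 147 and the unadjusted threshold 2223 genes. In Ribo-seq the 13 genes of the cell types became 7 with DESeq2, 8 with a mean of at least 10 counts, 1 with sums and 349 unadjusted, and the 7 of N1-AcSpd became 0 with DESeq2 and with sums, 12 with RLE factors, 3 without a minimum, 2 with a mean of at least 10 and 409 unadjusted; in HFSCs 1 member passed unadjusted. Translational efficiency had 0 calls, but 507 and 620 unadjusted, and for N1-AcSpd 6 with DESeq2 and 3 with sums. Without a count minimum the lists gave 1 call (amino acid synthesis) and 5 (unfolded protein response, against 2) for the cell types, and 1 (transporters), 1 (amino acid synthesis) and 2 (secreted targets) for N1-AcSpd.

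The Atf4 footprint difference in progenitors, 0.02, turned to -0.014 with DESeq2, -0.012 with RLE factors, -0.033 without a minimum, -0.067 with a mean of at least 10 and -0.045 with only the libraries compared, and in HFSCs it stayed at 0.78 to 1.18 with each library left out. Leaving out each library gave 188 to 457 and 42 to 137 genes called in RNA-seq, 2 to 23 and 2 to 19 in Ribo-seq, and 0 to 4 for the N1-AcSpd efficiency. Directions turned in RNA-seq for the cell types in Ddit3 (-0.18 to 0.18) and Trib3 (-0.19 to 0.12), so that the count of 10 lower members rests on all libraries. They turned for N1-AcSpd in Atf5 (-0.062 to 0.13), Trib3 (-0.077 to 0.21), Chac1 (-0.011 to 0.093), Ppp1r15a (-0.22 to 0.12) and Phgdh (-0.00084 to 0.20). In Ribo-seq they turned for the cell types in Atf4 (-0.17 to 0.17), Atf5 (-0.57 to 0.11), Trib3 (-0.59 to 0.16), Asns (-0.14 to 0.15) and Psat1 (-0.16 to 0.22), and for N1-AcSpd in Atf5 (-0.27 to 0.40), Trib3 (-0.62 to 0.23), Phgdh (-0.22 to 0.47) and, in progenitors, Atf4 (-0.41 to 0.36). In translational efficiency they turned for the cell types in Atf4 (-0.051 to 0.27), Asns (-0.057 to 0.22) and Psat1 (-0.16 to 0.36), and for N1-AcSpd in Asns (-0.033 to 0.23), Psat1 (-0.14 to 0.41) and Phgdh (-0.46 to 0.42). With 34475 to 268052 footprints a library, changes of 2-fold could not be detected in members with few footprints. Even for Atf4, with 840 footprints in all, an estimate of 2.05-fold in HFSCs did not pass the adjusted threshold.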
